A study of Mus musculus with 2 samples.

Results

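Brainstem pericytes were taken from single-cell RNA sequencing of the ventral parafacial region, the strip of medulla under the facial nucleus that holds chemosensitive neurons of the respiratory network. They were chosen by their counts of unique molecular identifiers (UMIs), each of which stands for a captured transcript. A cell entered the group when *Kcnj8*, *Abcc9*, *Vtn*, *Rgs5* and *Pdgfrb* together gave at least 6 UMIs. It also had to hold at most 2 UMIs of *Cldn5* and *Flt1* (endothelial genes), 2 of *Acta2* and *Tagln* (smooth muscle), 2 of *Dcn* and *Col1a1* (fibroblasts), 2 of *C1qa* and *C1qb* (microglia) and 1 of *Mog* and *Mag* (oligodendrocytes), and 0 of the neuronal transporter genes *Slc32a1* and *Slc17a6*. This kept 190 pericytes of 12395 cells with at least 800 genes, at most 50 hemoglobin UMIs and at most 20% mitochondrial UMIs.

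The cells came from C57BL6/J pups aged 10 days with a wild-type genotype. There were 2 libraries, each prepared from 8 pooled mice (4 male and 4 female). The pups of the first library (batch 1) were untreated, and those of the second (batch 2) received 4OH-tamoxifen at 0.2 mg daily for 3 days. Treatment, batch and sequencing depth therefore changed together and cannot be told apart, and no p-value is given, since a single library stood for each condition. All intervals below are 95% intervals for counting error only.

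Pericytes are the mural cells that lie inside the basement membrane of capillaries, wrapped around the endothelial tube. They depend on platelet-derived growth factor signalling from the endothelium for their recruitment, and they share a lineage with vascular smooth muscle without its full contractile apparatus. In the brain they are known for their part in the blood-brain barrier and for a potassium channel gated by ATP, built from the products of *Kcnj8* (the pore, Kir6.1) and *Abcc9* (the regulatory subunit, SUR2).

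The untreated library gave 92 pericytes among 3345 filtered cells, or 2.75% (2.22 to 3.36, exact binomial). The 4OH-tamoxifen library gave 98 among 9050, or 1.08% (0.880 to 1.32). Untreated pericytes held a median of 2330.5 UMIs per cell and 4OH-tamoxifen pericytes 1760.5, against 3632 and 2466 over all filtered cells. Their mitochondrial share had medians of 8.74% and 8.78%, above those of endothelial cells (6.59% and 6.23%) and microglia (5.48% and 6.27%). Fibroblasts, at 8.03% and 6.67%, lay closest to pericytes. The libraries shared 40 cell barcodes, and 1 pericyte in each library carried a shared barcode. In all, 258 untreated and 348 4OH-tamoxifen cells had 6 or more UMIs of the 5 genes, and 166 and 250 of these exceeded a limit on another cell type, most often that on *Cldn5* and *Flt1* (103 and 185 cells). The cells left outside by those limits are part of the remaining cells against which pericytes are compared below.

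The 5 genes that chose the cells are given as a description. Their summed UMIs per pericyte ran from 9 to 89 in the untreated library, with a median of 37.5, and from 6 to 50 in the 4OH-tamoxifen library, with a median of 18. Few cells lay near the limit of 6 UMIs. No untreated pericyte had 6, 7 or 8 marker UMIs, while 2 4OH-tamoxifen pericytes had 6, another 2 had 7 and another 2 had 8. Among cells that met every other limit, 0 untreated and 2 4OH-tamoxifen cells had 5 marker UMIs, and 1 and 3 cells had 4.

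Levels are given as the summed UMIs of a gene per 1000000 UMIs of the same cells (CPM), with an exact Poisson interval. *Rgs5*, a brake on G protein signalling, stood at 7289 CPM (6952 to 7639) in the pericytes of untreated mice and 5145 CPM (4833 to 5472) in those given 4OH-tamoxifen. *Vtn*, which encodes the adhesive glycoprotein vitronectin, stood at 5228 and 2578 CPM. *Pdgfrb*, the receptor for platelet-derived growth factor B, stood at 1059.7 and 918 CPM. *Rgs5* was found in 100% and 98.0% of pericytes, and in 5.99% and 3.23% of microglia, a type that should lack it and whose median depths were 4032.5 and 2432 UMIs.

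The label was set beside markers that the choice did not use. Their lists were made with earlier results of these data known, so the counts are no independent check. Of 24 other pericyte and mural genes with at least 50 CPM in both libraries, 23 were at least 4-fold higher in pericytes than in all other filtered cells in both. Across all genes tested the same was true of 189 of 2646, or 7.14%. Of the 24 genes, 22 were at least 4-fold higher than in endothelial cells and only 12 than in fibroblasts (against 5.67% and 3.14% of all genes). *Myh11*, the heavy chain of smooth muscle myosin, gave 3 and 1 UMIs over all pericytes of either library in turn. The choice had already limited other smooth muscle genes, so this low count is no check of its own. *Acta2* and *Tagln* were limited by the choice itself, and their counts, 0 UMIs in 87 of 92 and 92 of 98 pericytes, are a description only. Only 0 and 3 cells of the filtered data could be set aside as smooth muscle, so pericytes were not compared with them.

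*Kcnj8* stood at 844 CPM (732 to 968) in the pericytes of untreated mice and 695 CPM (584 to 822) in those given 4OH-tamoxifen, and *Abcc9* at 611 CPM (516 to 718) and 507 CPM (413 to 617). *Kcnj8* was found in 75.0% and 67.3% of pericytes, and in 0.898% and 0.323% of microglia. Both subunits of the channel were found in 50 of 92 untreated and 41 of 98 4OH-tamoxifen pericytes. Only *Kcnj8* was found in 19 and 25 cells, only *Abcc9* in 13 and 16, and neither in 10 and 16. The partner genes of the pancreatic form of the channel were absent or nearly so. *Kcnj11* (Kir6.2) gave 0 UMIs in pericytes of both libraries, and *Abcc8* (SUR1) gave 0 and 1. Of the 14 inward rectifier genes that the choice did not use, 1 reached 50 CPM in both libraries, and it was not called at least 4-fold higher, a call met by 7.14% of all genes. The gene that reached it, *Kcnj10* (Kir4.1, the channel of astrocytes), was at 170.4 and 183 CPM in pericytes, 114 and 135 CPM in microglia and 250.3 and 231 CPM in all other filtered cells. Without the pericytes that held many transcripts of other types, described below, *Kcnj10* was at 90.3 and 149 CPM.

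*Kcnj8* and *Abcc9* lie side by side on the minus strand of chromosome 6 (GRCm38), at 142564837 to 142571614 and 142587862 to 142702315. Sequence before the start of each gene is shown because these 2 genes act together, next to that of *Myl9* and *Notch3*, a contractile gene and a Notch receptor gene described below. The sequences are the 250 bases before the RefSeq start (GRCm38.p6), less 41 bases for *Abcc9* and 44 for *Myl9* that lie inside the gene as annotated by GENCODE. They are read 5′ to 3′ along the gene's strand, and capitals mark matches to the motifs searched, of which the *Kcnj8* sequence has none.
*Kcnj8*, chr6:142571615-142571864, minus strand: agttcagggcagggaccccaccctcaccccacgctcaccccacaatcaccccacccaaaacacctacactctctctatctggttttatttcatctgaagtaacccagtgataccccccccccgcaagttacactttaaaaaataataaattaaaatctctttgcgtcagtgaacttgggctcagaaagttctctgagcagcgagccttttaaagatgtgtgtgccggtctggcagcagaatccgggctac
*Abcc9*, chr6:142702316-142702524, minus strand: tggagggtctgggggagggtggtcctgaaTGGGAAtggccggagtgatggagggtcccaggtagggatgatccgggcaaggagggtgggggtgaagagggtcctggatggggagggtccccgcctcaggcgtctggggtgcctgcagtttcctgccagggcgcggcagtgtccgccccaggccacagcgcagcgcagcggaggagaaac
*Myl9*, chr2:156775214-156775419, plus strand: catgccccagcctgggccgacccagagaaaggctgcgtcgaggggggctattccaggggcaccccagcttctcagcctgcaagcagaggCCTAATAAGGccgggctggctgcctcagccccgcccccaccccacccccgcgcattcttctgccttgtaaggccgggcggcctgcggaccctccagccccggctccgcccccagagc
*Notch3*, chr17:32166891-32167140, minus strand: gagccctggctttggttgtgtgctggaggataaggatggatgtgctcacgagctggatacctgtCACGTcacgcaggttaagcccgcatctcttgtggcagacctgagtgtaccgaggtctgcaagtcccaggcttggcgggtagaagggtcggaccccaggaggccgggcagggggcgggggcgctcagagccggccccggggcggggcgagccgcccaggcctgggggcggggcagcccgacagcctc

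The motifs were TGGGAA (the core bound by the Notch partner RBPJ), ACGTG (the core of hypoxia response elements), TGTTTAC (forkhead), the palindrome of EBF factors and the CArG box bound by serum response factor, on both strands. Each motif was counted on its own, and TGGGAA can share bases with the EBF palindrome. Upstream sequence was found for 18 of the 25 genes made up of the 5 marker genes and the 20 genes named next. TGGGAA occurred upstream of 7 of the 18 (38.9%), among them *Abcc9* and *Vtn*, against 21.6% of all 32851 promoters. ACGTG occurred upstream of 3 (16.7%, against 16.6%), *Notch3* among them. TGTTTAC occurred upstream of 2 (11.1%, against 3.17%), *Cald1* and *Gper1*. The CArG box occurred upstream of 1, *Myl9* (5.56%, against 1.47%), and the EBF palindrome upstream of 0 (against 0.779%). Genes with several starts had more than 1 chance of a match, and the shares are a description only.

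The genes furthest above all other filtered cells, ranked by the lower ratio of the 2 libraries after 10 CPM were added to both sides, were *Higd1b*, *Myl9*, *Ndufa4l2*, *Atp13a5*, *Cox4i2*, *Cd248*, *Ifitm1*, *Cald1*, *Art3*, *Gjc1*, *Gper1*, *Sod3*, *Anpep*, *Notch3*, *Tm4sf1*, *Zic1*, *Itga1*, *Eva1b*, *Mfge8* and *Tbxa2r*. *Higd1b*, a relative of the hypoxia-induced mitochondrial protein HIGD1A, was at 2747 CPM (2542 to 2965) in the pericytes of untreated mice and 2004 CPM (1811 to 2212) in those given 4OH-tamoxifen. That was 69.5 times (62.3 to 77.5) and 70.3 times (62.3 to 79.2) the level in all other filtered cells. It was found in 96.7% and 91.8% of pericytes and in 2.1% and 1.45% of microglia. *Atp13a5*, a P-type ATPase of the P5 class, was at 773 and 512 CPM, 70.5 times (57.2 to 86.9) and 61.9 times (48.7 to 78.1) the other cells. *Cd248*, which encodes the cell surface glycoprotein endosialin, was at 565 and 426 CPM, with ratios of 76.5 and 72.7. *Art3*, of the ADP-ribosyltransferase family, was at 461 and 228 CPM, with ratios of 98.0 and 72.8. *Anpep* (aminopeptidase N, or CD13) was at 195 and 167 CPM, and *Sod3*, the extracellular superoxide dismutase, at 569 and 411 CPM. *Mfge8*, which encodes a secreted bridge for the uptake of dying cells, was at 1006 and 609 CPM, with ratios of 18.6 and 15.8. Some of the 20 were also present in fibroblasts, as the plot of levels by population shows: *Ifitm1* was at 1200.3 and 196 CPM there, *Zic1* at 319 and 402 CPM and *Eva1b* at 398 and 491 CPM.

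**Figure D1:**
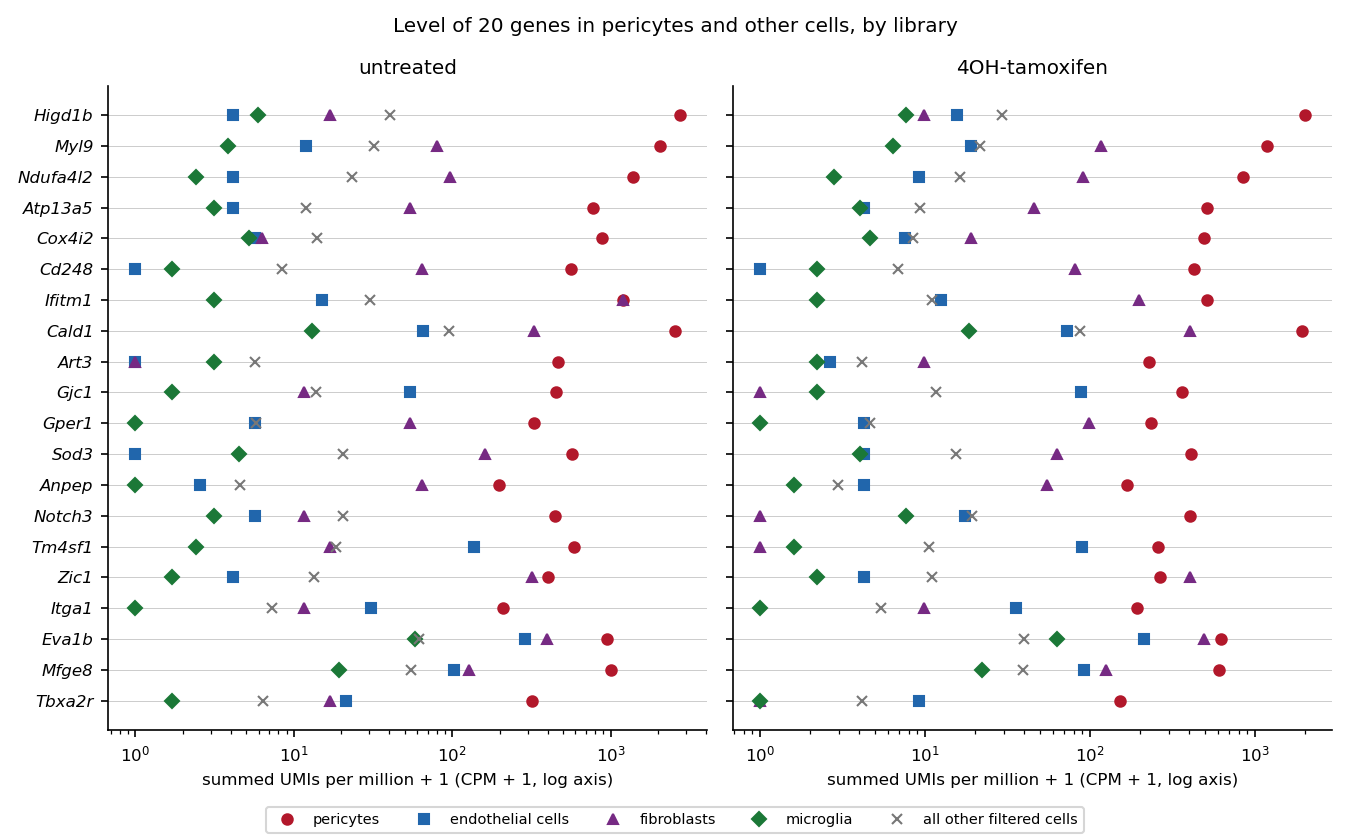
CPM plus 1 (log axis) of the 20 genes furthest above all other filtered cells, in pericytes, endothelial cells, fibroblasts, microglia and all other filtered cells of the untreated (left) and 4OH-tamoxifen (right) libraries. Pericytes hold the highest point in every row except *Ifitm1* in the untreated library (1193 CPM, against 1200.3 in fibroblasts) and *Zic1* in the 4OH-tamoxifen library (264 CPM, against 402).

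Of 22 oxygen-linked mitochondrial genes and partners, 13 reached 50 CPM in both libraries and 4 (*Ndufa4l2*, *Cox4i2*, *Higd1b* and *Epas1*) were called, against 7.14% of all genes, and the list's median log2 ratio was -0.0041 and 0.28. Other tissue-restricted forms of the chain's subunits were scarce in pericytes, with *Cox8b* at 0 UMIs in both libraries, *Cox6a2* at 0 and 2 and *Cox7a1* at 4 and 2. *Ndufa4l2*, an isoform of a small subunit of the chain, gave 334 UMIs and *Ndufa4* 121 in untreated pericytes, so that *Ndufa4l2* made up 73.4% (69.1 to 77.4) of the pair. In 4OH-tamoxifen pericytes it gave 167 of the pair's UMIs and *Ndufa4* 162, or 50.8% (45.2 to 56.3). In endothelial cells, fibroblasts and microglia of both libraries the share was 12.3% or lower. *Cox4i2*, the isoform of cytochrome oxidase subunit IV that is known from lung and oxygen-sensing cells, made up 29.3% (26.0 to 32.8) and 18.1% (14.9 to 21.7) of its pair with *Cox4i1*, against at most 1.01% in those 3 types. *Higd1b* made up 91.4% and 87.4% of its pair with *Higd1a*, against at most 6.82%. *Cox4i1* itself did not stand below the other cells: it was at 2115 and 2202 CPM in pericytes, 1.35 and 1.33 times all other filtered cells. *Ndufa4* was lower, at 503 and 822 CPM, 0.469 times (0.389 to 0.561) and 0.760 times (0.647 to 0.886) the other cells. *Epas1*, the hypoxia-inducible factor of vascular cells, was at 453 and 396 CPM with ratios of 4.87 and 4.85. *Hif1a*, its widely expressed relative, was at 87.3 and 127 CPM, with ratios of 0.834 (0.515 to 1.28) and 1.04 (0.675 to 1.54). Of 20 hypoxia-responsive target genes, 3 reached 50 CPM in both libraries and 0 of them were called 4-fold higher, too few to read against the share of all genes.

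**Figure D2:**
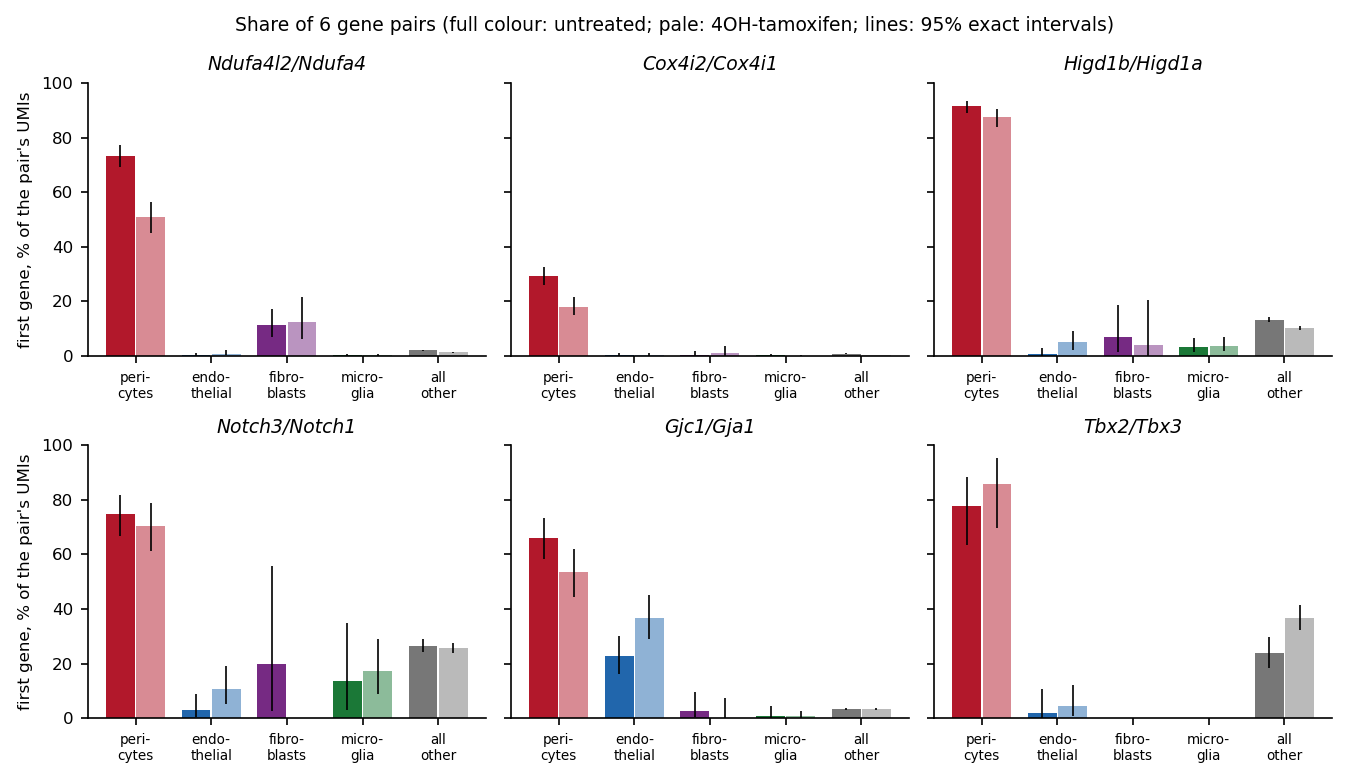
Share of a pair's UMIs that came from its first gene (percent), for 6 gene pairs in 5 populations, with full colour for untreated, pale colour for 4OH-tamoxifen and lines for exact 95% binomial intervals. Bars that would rest on fewer than 10 UMIs are left out. The first gene's share is highest in pericytes in every panel, from 91.4% for *Higd1b* to 18.1% for *Cox4i2*.

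Of 20 smooth muscle genes, 9 that the choice did not use reached 50 CPM in both libraries, and 7 were at least 4-fold higher in pericytes (against 7.14% of all genes). *Myl9*, the regulatory light chain of smooth muscle myosin, was at 2036 CPM (1860 to 2225) and 1182 CPM (1035 to 1344), with ratios of 65.0 (57.3 to 73.6) and 57.1 (49.0 to 66.4). *Cald1* (caldesmon) was at 2556 and 1933 CPM, with ratios of 27.0 and 22.5. *Mylk*, the kinase that activates the light chain, was at 245 and 284 CPM, and *Tpm2*, a tropomyosin, at 121 and 96.4 CPM. *Flna* (filamin A), *Filip1l* and *Casq2* (the calcium store protein calsequestrin 2) made up the rest. The median log2 ratio of the 18 genes outside the rule was 1.32 and 1.24, against -0.12 and -0.05 over 9525 genes at 10 CPM or more on average. Of the 20 genes, 4 had 0 UMIs in pericytes of both libraries.

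Among channels of contractile cells, 7 of 31 reached 50 CPM in both libraries and 3 were called (against 7.14%). *Ano1*, the calcium-activated chloride channel, was at 137 CPM (94.4 to 193) and 107 CPM (66.0 to 163), 52.3 times (32.3 to 84) the other cells in the untreated library, and gave 0 UMIs in endothelial cells and fibroblasts of both libraries. *Kcnmb1*, the smooth muscle subunit of the large-conductance potassium channel, was at 95.6 and 71.0 CPM with ratios of 94.3 (48.2 to 188) and 90.6 (43.5 to 181). *Cacna1c*, the pore of the L-type calcium channel, was detected at 49.9 CPM (25.8 to 87.1) and 25.4 CPM (8.24 to 59.2), below the floor of 50 CPM in both libraries. Of 4 gap junction genes at 50 CPM in both libraries, *Gjc1* (connexin 45) and *Gja4* (connexin 37) were called (2 of 4, against 7.14% of all genes), with ratios of 35.5 and 34.1 for *Gjc1* and 19.5 (untreated) for *Gja4*. *Gjc1* made up 66.1% and 53.4% of its pair with *Gja1* (connexin 43), above endothelial cells (22.7% and 36.8%). *Gjc3*, a connexin gene of oligodendrocytes, was at least 4-fold lower, a call that 104 of 3054 genes met (3.41%).

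Vasoactive receptors and cyclic nucleotide genes formed a list of 67, of which 17 reached 50 CPM in both libraries and 13 were called (against 7.14% of all genes), 6 of them receptors. *Tbxa2r*, the thromboxane receptor, was at 316 and 152 CPM, 58.2 and 48.5 times all other filtered cells. *Ednra*, the receptor for endothelin, was at 224 and 167 CPM, with ratios of 25.1 and 18.7. Its ligand gene *Edn1* gave 0 UMIs in pericytes and 100.3 and 203 CPM in endothelial cells. *S1pr3*, a receptor for sphingosine 1-phosphate, was at 320 and 157 CPM, and *F2r*, the thrombin receptor, at 125 and 101 CPM. *Agtr1a*, the angiotensin receptor of vascular muscle, gave 1 UMI in each library. Of purinergic receptors, *Adora2a* (an adenosine receptor) was at 162 and 60.9 CPM and *P2ry14* at 175 and 117 CPM.

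Transcripts of the receptor of nitric oxide were found with those of an enzyme that ends its signal. *Gucy1a3* and *Gucy1b3*, the subunits of soluble guanylate cyclase, were at 723 and 324 CPM in untreated pericytes and at 411 and 208 CPM in 4OH-tamoxifen pericytes. *Pde5a*, which breaks down cyclic GMP, was at 204 and 152 CPM, 32.2 times (22.5 to 45.6) and 33.5 times (21.8 to 49.9) the other cells. *Pde3a* and *Pde8b*, other genes of the cyclic nucleotide list, were called too. *Rgs4*, like *Rgs5* a regulator of G protein signalling, was at 528 and 319.7 CPM, and *Gng11*, a G protein gamma subunit shared with endothelial cells (1050.4 and 937 CPM), at 1870.1 and 1375 CPM.

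**Figure D3:**
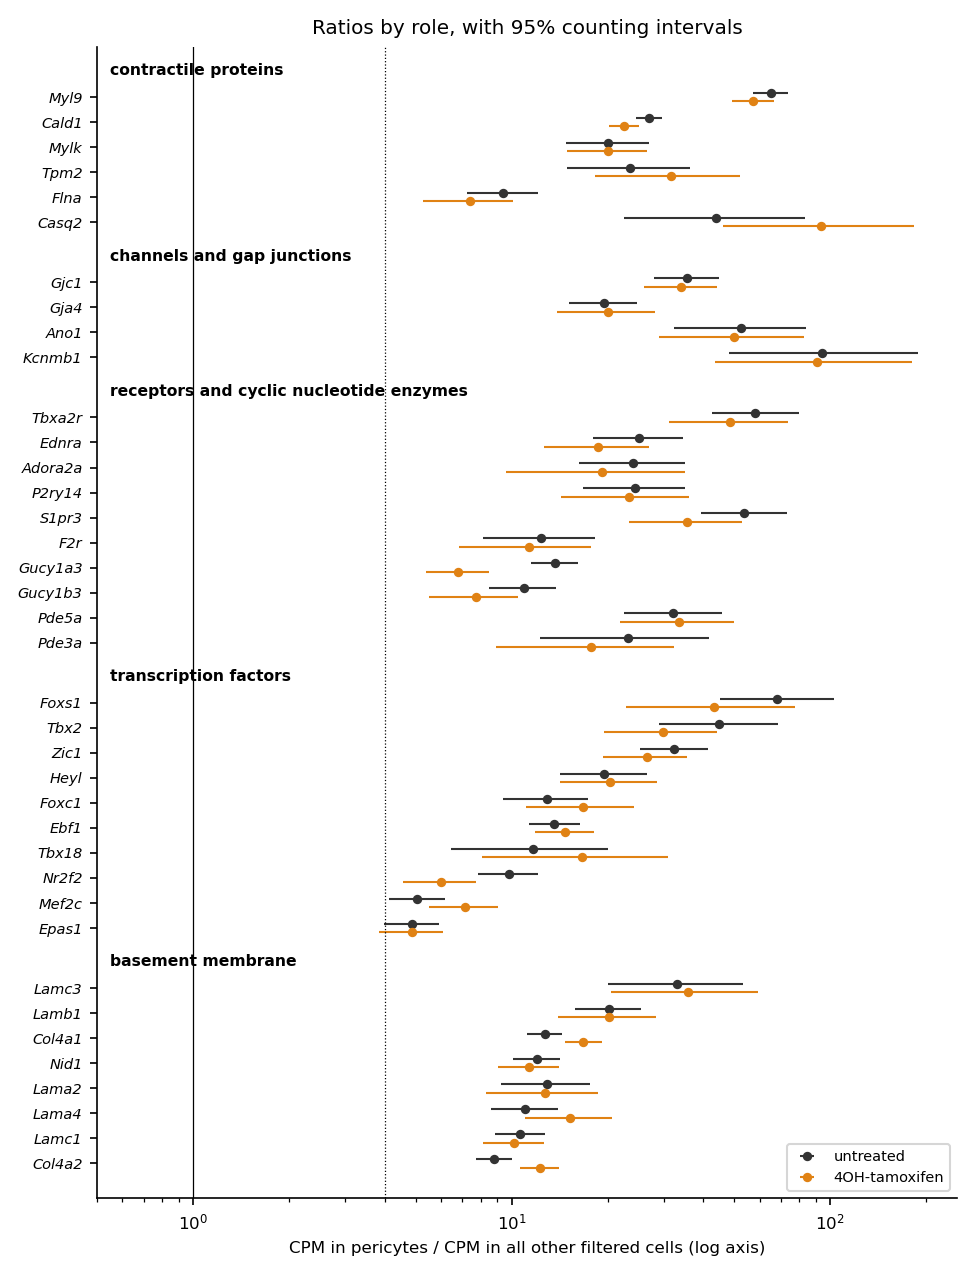
Ratio of CPM in pericytes to CPM in all other filtered cells (log axis) for genes of 5 roles, with points for the untreated (dark) and 4OH-tamoxifen (orange) libraries and lines for exact 95% counting intervals. The solid line marks equal levels and the dotted line a 4-fold ratio; *Kcnmb1* and *Casq2* lie furthest right with wide intervals, and *Epas1* (4.87 and 4.85) lies closest to the dotted line.

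Of the 6 platelet-derived growth factor genes besides *Pdgfrb*, 1 reached 50 CPM in both libraries and was not called, so the list holds too few genes to read against the share of all genes. *Pdgfb*, the ligand, was at 8.31 and 10.1 CPM in pericytes (2 UMIs in each library), against 139.5 and 99.9 CPM in endothelial cells. In the Notch pathway 6 of 18 genes reached 50 CPM in both libraries, and 2 of these, *Notch3*, the receptor of mural cells, and *Heyl*, a target gene, were called (against 7.14% of all genes). *Notch3* was at 445 CPM (364 to 537) and 401 CPM (317 to 499.6), 22.8 and 22.0 times all other filtered cells, and made up 74.8% and 70.5% of its pair with *Notch1*. In endothelial cells that share was 3.12% and 10.9%. *Jag1*, a Notch ligand, was at 95.6 and 107 CPM with ratios of 5.67 (3.53 to 8.68) and 8.07 (4.94 to 12.5), but fell short of the call, which adds 10 CPM to both sides.

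Of the transforming growth factor beta and bone morphogenetic protein genes, 9 of 30 reached 50 CPM in both libraries, *Nbl1*, an antagonist of bone morphogenetic proteins, was called higher (478 and 264 CPM), 1 of 9 against 7.14% of all genes, and *Smad7* lower, 1 of 8 against 3.41%. *Il34*, a ligand of the microglial receptor CSF1R, was at 270.1 and 157 CPM in pericytes, 38.4 and 38.9 times all other filtered cells, and gave 0 UMIs in microglia and endothelial cells. *Ackr3*, a scavenger receptor for CXCL12, was at 108 and 55.8 CPM. *Il34* and *Ackr3* were the called genes of 7 in the angiopoietin, VEGF, ephrin and chemokine list that reached 50 CPM in both libraries (against 7.14%). *Sfrp2*, a secreted Wnt modulator, was called, 1 of the 2 Wnt genes (of 25) that reached 50 CPM in both libraries (7.14% of all genes were called), at 283 and 167 CPM. *Gper1*, a G protein-coupled receptor linked to estrogen, was called, 1 of the 2 retinoid and steroid hormone genes (of 24) that reached 50 CPM in both libraries (7.14% of all genes were called), at 328 CPM (259.9 to 409) and 233 CPM (171 to 311), and gave 0 UMIs in microglia. *Ptn* (pleiotrophin), a growth factor, was abundant at 5444 and 3344 CPM but only 2.96 and 2.07 times above the other cells, and its level in fibroblasts was 12253 and 9475 CPM.

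Of 24 transcription factors of mural cells, 14 reached 50 CPM in both libraries and 10 were called (against 7.14%). Of the 14, only 5 were at least 4-fold above endothelial cells and 3 above fibroblasts (against 5.67% and 3.14% of all genes). *Foxs1*, a forkhead factor, was at 204 and 76.1 CPM with ratios of 68.3 (45.1 to 103) and 43.3 (22.8 to 77.7), and gave 0 UMIs in endothelial cells. *Tbx2*, a T-box repressor, was at 158 and 152 CPM, with 0 UMIs in fibroblasts of both libraries. *Zic1*, a zinc finger factor, was at 403 and 264 CPM in pericytes and 319 and 402 CPM in fibroblasts. *Ebf1* was at 578 and 497 CPM, *Foxc1* at 216 and 157 CPM, and *Nr2f2* (COUP-TFII) at 411 and 315 CPM. *Tbx18*, a T-box factor used as a mural marker, was at 66.5 CPM (38 to 108) and 55.8 CPM (27.9 to 99.9) in pericytes. In fibroblasts it was higher, at 361 and 572 CPM, and the ratio of pericytes to fibroblasts was 0.184 (0.0997 to 0.321) and 0.0977 (0.0464 to 0.187).

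Of 25 basement membrane genes, 14 reached 50 CPM in both libraries without the gene used by the choice, and 8 were called (against 7.14% of all genes). The collagen IV chains *Col4a1* (1234 and 1263 CPM) and *Col4a2* (1122 and 1116 CPM) were 8.83 to 16.8 times above all other filtered cells. *Nid1* (nidogen) was at 694 and 452 CPM, and the laminin chains *Lamc1* at 598 and 452, *Lamb1* at 382 and 193, *Lama4* at 332 and 238 and *Lama2* at 199 and 142 CPM. *Lamc3* had the largest ratios of the group, 33.0 (20.1 to 53.1) and 35.7 (20.5 to 59.2). None of the 8 was 4-fold above fibroblasts, where *Col4a1* stood at 1407 and 2233 CPM. Of 46 interstitial matrix genes, 18 reached 50 CPM and 11 were called (against 7.14%), among them *Mgp*, *Bgn* (biglycan), *Aspn* (asporin), *Postn* (periostin) and *Igfbp7*. Of the 18, 10 were at least 4-fold above endothelial cells but only 1 above fibroblasts (against 5.67% and 3.14% of all genes). *Aspn* was at 254 and 91.3 CPM, 109 times (71.8 to 167) and 85.6 times (45.5 to 156) the other cells, and at 5.31 and 0 CPM in fibroblasts. The fibrillar collagen genes *Col1a2* (378 and 264 CPM) and *Col3a1* (349 and 173 CPM) were called against all other cells, but stood at 0.0842 and 0.0517 times the fibroblast level for *Col1a2* and at 0.0745 and 0.0415 times for *Col3a1*. Of 13 integrin and adhesion genes at 50 CPM in both libraries, 2 were called (against 7.14%). *Itga1*, the alpha chain of a collagen and laminin receptor, was at 208 and 193 CPM, and *Itga4* at 125 and 81.2 CPM.

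Of 43 solute transporters, 19 reached 50 CPM in both libraries and 5 were called (against 7.14%). Besides *Atp13a5* these were *Slc6a20a* (a proline and imino acid carrier, 237 and 137 CPM), *Slc19a1* (the reduced folate carrier, 324 and 249 CPM), *Slc30a10* (a manganese exporter, 191 and 152 CPM) and *Atp2a3* (a calcium pump of the endoplasmic reticulum, 191 and 117 CPM). *Slc2a1*, the glucose transporter, was at 33.2 and 15.2 CPM in pericytes and 734 and 645 CPM in endothelial cells, and *Slc7a5*, a carrier of large amino acids, at 62.3 and 50.7 against 1126 and 1057 CPM. Of 37 immune and inflammatory genes, 9 reached 50 CPM in both libraries and 3 of these, *Ifitm1*, *Ifitm2* and *Ifitm3*, which encode membrane proteins that restrict the entry of viruses, were called (against 7.14%), at 1193, 594 and 835 CPM in untreated and 512, 386 and 543 CPM in 4OH-tamoxifen pericytes. These 3 genes are close paralogs, and reads shared among them could be assigned to either.

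Because the region senses carbon dioxide and protons, 37 genes linked to proton sensing, carbonic anhydrases and bicarbonate transport were examined. In pericytes 6 reached 50 CPM in both libraries and 0 of these were called 4-fold higher, a count near the 7.14% of all genes. *Gpr4*, a proton-sensing receptor, was at 66.5 CPM (38 to 108) in the pericytes of untreated mice and 15.2 CPM (3.14 to 44.5) in those given 4OH-tamoxifen, where it gave 3 UMIs, and at 107 and 98.3 CPM in endothelial cells. *Car4*, the membrane-bound carbonic anhydrase of capillaries, was at 212 and 178 CPM, against 994 and 732 CPM in endothelial cells. Of the 37 genes, 12 gave 0 UMIs in pericytes of both libraries.

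Against endothelial cells, the neighbours on the same capillary, 150 of 2646 genes were at least 4-fold higher in pericytes (5.67%). *Higd1b* was 876 times (242 to 7249) and 136 times (70.9 to 299.5) higher, with 2 and 9 UMIs in endothelial cells. *Cd248* gave 0 UMIs in endothelial cells and was at least 120.2 and 86.7 times higher in pericytes, with 3 UMIs per library taken as the limit that a count of 0 allows. Against fibroblasts, the other perivascular cells, 83 genes were called (3.14%). They were led by *Higd1b*, *Tm4sf1* (a tetraspan membrane protein of vascular cells), *Gjc1*, *Notch3*, *Mcam* (the adhesion molecule CD146) and *Cox4i2*. *Mcam* gave 0 UMIs in fibroblasts, and pericytes (386 and 198 CPM) were at least 24.3 and 7.39 times higher. *Vtn*, although used by the choice, did not separate the 2 types: fibroblasts held 4870.4 and 2456 CPM, and the ratio was 1.07 (0.985 to 1.17) and 1.05 (0.905 to 1.22). The fibroblasts compared here were 46 and 43 cells, which limits these ratios.

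Among the 104 genes at least 4-fold lower in pericytes was *Cnp*, a gene of myelinating cells (532 and 518 CPM, against 2709 and 2759 CPM in all other filtered cells). Of the 7 microglia and macrophage genes outside the choice that could be called lower, 6 were, against 3.41% of all genes. In the remaining lists, 0 of the 7 dissociation and immediate early genes, 0 of the 4 cell cycle genes, 0 of the 5 imprinted growth genes and 0 of the 11 lipid, prostaglandin and vitamin genes that reached 50 CPM in both libraries were called higher, against 7.14% of all genes, and 0 extracellular nucleotide enzymes reached that level. *Klf2*, an immediate early gene of flow-exposed endothelium, was called lower. The dissociation genes summed to 2718 and 2293 CPM in pericytes, against 9538 and 5801 CPM in microglia.

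Transcripts known from other cell types were found in the pericytes. *Mbp*, a myelin gene, was at 13240.4 and 15074 CPM, and was found in 100% of pericytes and 100% of microglia in both libraries. Microglia held 9319 and 13014 CPM of it. The whole oligodendrocyte list of 14 genes, 2 of them limited by the choice and each with at least 1 UMI in pericytes, summed to 17326 and 20087 CPM in pericytes and to 11955 and 17099 CPM in microglia. The 13 astrocyte genes, also each detected, summed to 3919 and 5479.8 CPM in pericytes, against 2142 and 3501 CPM in microglia. The 14 neuron genes, of which 8 and 12 gave UMIs and 2, *Slc32a1* and *Slc17a6*, were held at 0 by the choice, summed to 3275 and 5231 CPM against 632 and 1459 CPM in microglia. Most of that sum was *Meg3*, a long noncoding RNA, at 2639 and 2882 CPM, found in 92.4% and 83.7% of pericytes and in 10.8% and 24.6% of microglia. The 17 endothelial genes, of which the choice limited *Cldn5* and *Flt1*, summed to 906 and 502 CPM in pericytes, with *Cdh5*, *Kdr* and *Abcb1a* at 0 in both libraries, and to 21833 and 15511 CPM in endothelial cells. The part of these transcripts in the ratios was not tested.

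Some of these transcripts were held by few cells. *Snhg11*, a long noncoding RNA of neurons, gave 42 UMIs in untreated pericytes, 95.2% of them in 3 cells, and 85 in 4OH-tamoxifen pericytes, 91.8% of them in 3 cells. Cells were counted as mixed when *Snap25*, *Syp*, *Tubb3* and *Elavl2* gave at least 3 UMIs, *Aqp4*, *Slc1a2*, *Slc1a3*, *Gja1* and *Aldoc* at least 10, or a set of oligodendrocyte genes with *Mobp* and *Cnp* at least 20. This held for 15 untreated pericytes (of 92) and 18 4OH-tamoxifen pericytes (of 98). A doublet caller, Scrublet, marked 0 and 4 of the pericytes; it marked only 0.159% of barcodes in the untreated library, where it cannot be said to have worked.

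**Figure D4:**
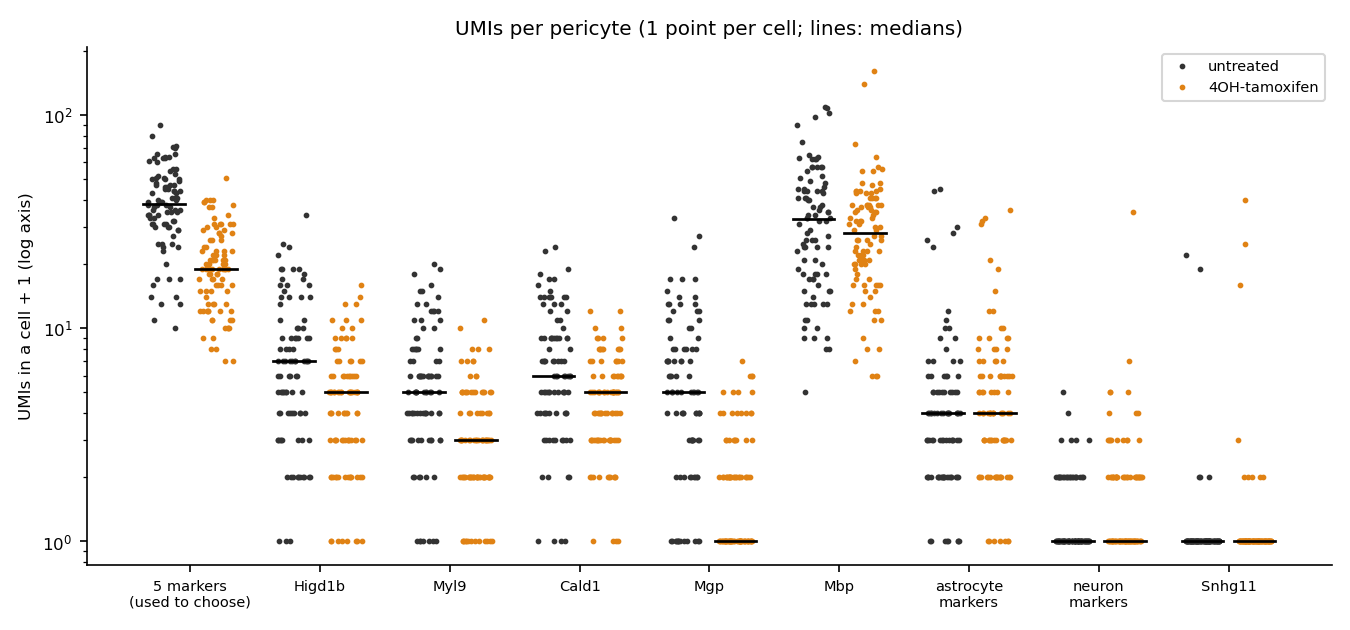
UMIs per pericyte plus 1 (log axis), 1 point per cell, for the sum of the 5 genes that chose the cells, for single genes, and for the 5 astrocyte and 4 neuron genes used to count mixed cells. Dark points are untreated and orange points 4OH-tamoxifen pericytes, and lines mark medians. *Higd1b*, *Myl9* and *Cald1* lie above 0 in most cells of both libraries, whereas *Snhg11* is at 0 in 87 and 89 cells and high in a few.

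Variation among pericytes was measured by a dispersion, which is near 1 when a gene's UMIs vary only by counting at each cell's depth. At equal relative spread it grows with a gene's level, so abundant genes can rank higher. Over 910 genes with a mean of at least 0.3 UMIs per cell, the median dispersion was 1.16 (untreated) and 1.13 (4OH-tamoxifen), and 46 genes reached 2 in both. The 15 genes with the largest lower value were *Malat1*, *Meg3*, *Actb*, *Mbp*, *Snhg11*, *Apoe*, *mt-Co3*, *mt-Co1*, *Cst3*, *Rgs5*, *mt-Atp6*, *Aqp4*, *Mt1*, *mt-Nd1* and *mt-Cytb*. Of these *Rgs5* is the pericyte gene, and its counts ran from 1 to 61 with a median of 16 in untreated and from 0 to 38 with a median of 8 in 4OH-tamoxifen pericytes (dispersion 6.13 and 6.43). It was used to choose the cells. Among genes not used, *Higd1b* ran from 0 to 33 UMIs with a median of 6 and from 0 to 15 with a median of 4, and *Col4a1* varied less, with dispersions of 1.57 and 1.65 against 4.17 and 2.79 for *Higd1b*.

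Some pericytes held transcripts of the cell cycle. At least 3 UMIs of 21 cycle genes were found in 9 of 92 untreated pericytes (9.78%, 4.57 to 17.8) and in 13 of 98 4OH-tamoxifen pericytes (13.3%, 7.26 to 21.6). In endothelial cells the share was 7.19% and 8.0%, in fibroblasts 4.35% and 2.33% and in microglia 11.4% and 10.7%, at greater median depths (3299 and 2505.5 UMIs in endothelial cells, 3640 and 2493 in fibroblasts). After each cell was thinned to 2000 UMIs, which kept 74 and 33 pericytes, the share was 12.2% and 15.2% in pericytes, 3.79% and 7.86% in endothelial cells, 2.27% and 3.33% in fibroblasts and 6.17% and 12.4% in microglia. The intervals of the pericyte shares in the 2 libraries overlap.

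Between the libraries, 53 of the 1889 genes whose higher level reached 100 CPM were at least 2-fold higher in untreated pericytes (2.81%) and 86 were at least 2-fold higher in 4OH-tamoxifen pericytes (4.55%). These are counts of ratios between 2 libraries, not of conditions, and no pattern in them was tested. Among genes with at least 500 CPM in either library the largest ratio was that of *Mgp*, an inhibitor of calcification in vessel walls. It was at 2178 CPM (1995 to 2372) in the pericytes of untreated mice and 518 CPM (422 to 628) in those given 4OH-tamoxifen, a ratio of 4.21 (3.40 to 5.25). The ratio for *Mgp* was 3.08 in endothelial cells, 3.44 in fibroblasts and 14.8 in all other filtered cells. *Mgp* was at 0 UMIs in 13 of 92 untreated and 50 of 98 4OH-tamoxifen pericytes.

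Of 13 interstitial matrix genes at 100 CPM, *Mgp* and *Aspn* were on the untreated side, and of 15 basement membrane genes *Col18a1* and *Vtn* were, against 2.81% of all genes. Since *Vtn* was used to choose the cells, only *Col18a1* of these basement membrane genes was on that side free of the choice. *Aspn* had a ratio of 2.78 (1.62 to 4.99) and *Col18a1*, a basement membrane collagen, of 3.46 (1.64 to 8.13). *Ifitm1* had a ratio of 2.33 (1.85 to 2.95), and 6.11 in fibroblasts. *Perp*, a gene of cell adhesion and apoptosis, was at 121 CPM (80.7 to 173) in the pericytes of untreated mice and 15.2 CPM (3.14 to 44.5) in those given 4OH-tamoxifen, where it gave 3 UMIs, a ratio of 7.92 (2.45 to 40.6). In all other filtered cells the ratio of *Perp* was 0.789. *Vtn*, which the choice used, had a ratio of 2.03 (1.83 to 2.25), and 1.98 in fibroblasts. Of 16 vasoactive genes at 100 CPM, those on the untreated side were *Tbxa2r* (2.07, 1.34 to 3.28) and *Adora2a* (2.66, 1.37 to 5.58), and of 12 mural transcription factors it was *Foxs1* (2.68, 1.48 to 5.14). *Gpr17*, a gene of oligodendrocyte precursors, was also on this side, at 137 CPM in untreated pericytes, where 7.61% of cells held it (7.49% of microglia), and 30.4 CPM in 4OH-tamoxifen pericytes. Of 3 endothelial marker genes at 100 CPM, *Pltp* and *Esam* were on the untreated side too, against 2.81% of all genes.

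The 15 genes with the largest ratios towards 4OH-tamoxifen were *Nrxn3*, *Basp1*, *Sncg*, *Arhgdig*, *Cadm3*, *Syp*, *Nefm*, *Slc30a9*, *Lockd*, *Stmn2*, *Stmn3*, *Atp1b1*, *Cplx1*, *Prph* and *Map1b*. *Map1b*, of the neuronal cytoskeleton, was at 133 CPM (91.0 to 188) in the pericytes of untreated mice and 452 CPM (363 to 556) in those given 4OH-tamoxifen, a ratio of 3.40 (2.24 to 5.26). The ratio of *Map1b* was 1.96 in endothelial cells, 2.88 in microglia and 1.55 in all other filtered cells. *Syp* (synaptophysin) was at 24.9 and 152 CPM, a ratio of 6.10 (2.50 to 17.9), and was found in 6.52% and 10.2% of pericytes against 3.29% and 8.40% of microglia. With the mixed cells left out, *Syp* was at 31.9 and 20.3 CPM, and its ratio of 4OH-tamoxifen to untreated was 0.638 (0.103 to 2.99). *Syp* is among the genes that define a mixed cell, so its fall in that count was set by the choice of cells and says nothing of the other pericytes. *Map1b* kept a ratio of 3.57 (2.11 to 6.29) without those cells, and *Mgp* kept its ratio of untreated to 4OH-tamoxifen at 4.05 (3.21 to 5.15). Of the 7 neuron genes that reached 100 CPM, 6 were on the 4OH-tamoxifen side, against 4.55% of all genes tested. They include *Snap25*, *Syp* and *Tubb3*, which define mixed cells. For the other 3 the ratio of 4OH-tamoxifen to untreated without mixed cells was 3.04 (*Nefl*), 4.32 (*Nefm*) and 3.32 (*Stmn2*). In microglia the ratios of these genes were 2.56, 2.99 and 2.63. Without mixed cells 49 of the 86 genes stayed on that side, and 93 genes were on it in all. Of the 21 other pericyte and mural genes that reached 100 CPM with all pericytes kept, 0 were on that side. On the untreated side there were 3 (*Ifitm1*, *Foxs1* and *Aspn*), against 4.55% and 2.81% of all genes in turn.

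**Figure D5:**
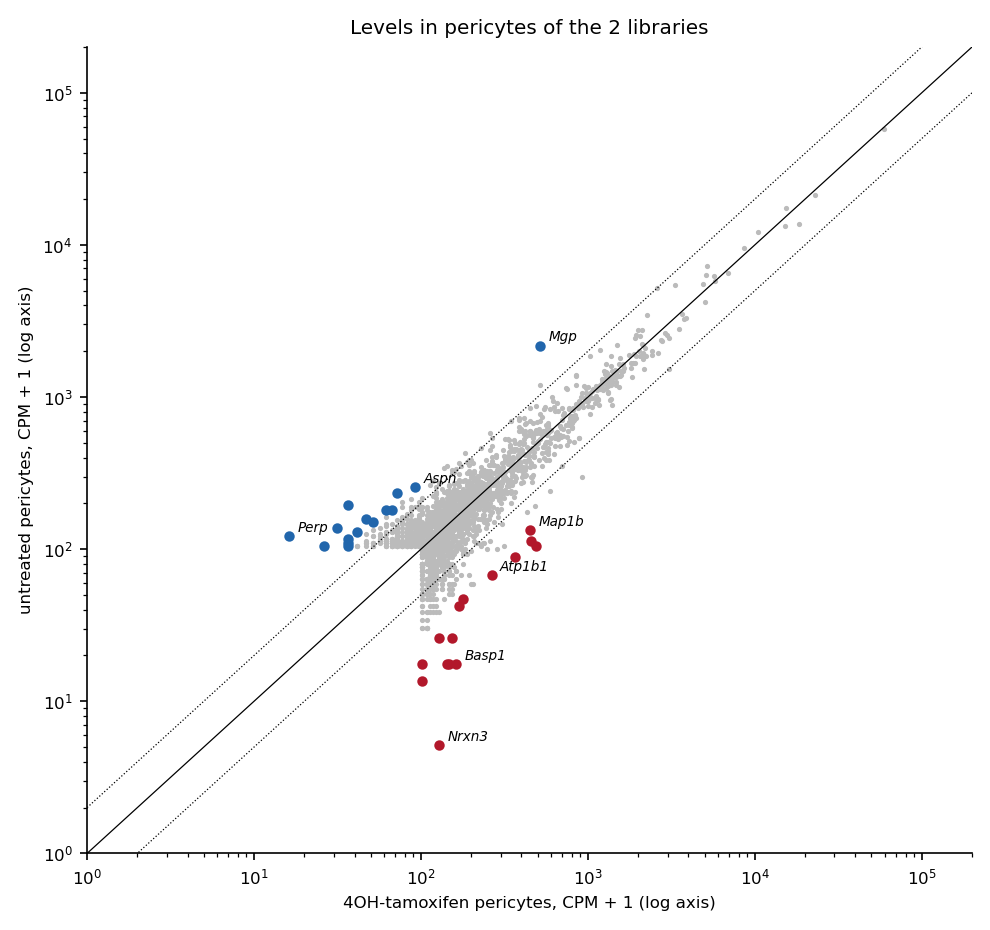
CPM plus 1 in 4OH-tamoxifen pericytes (horizontal, log axis) and untreated pericytes (vertical, log axis) for genes whose higher level reached 100 CPM, with the 15 largest ratios in each direction in blue (untreated) and red (4OH-tamoxifen). The solid line marks equal levels and the dotted lines a 2-fold ratio; *Mgp* stands apart among abundant genes (2178 against 518 CPM).

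Most pericyte genes lay between the dotted lines. Of the channel subunits, *Kcnj8* was at 844 and 695 CPM and *Abcc9* at 611 and 507 CPM, and the ratio of untreated to 4OH-tamoxifen was below 2 for both. Both genes were used to choose the cells, so this is a description only. *Vtn*, also used by the choice, lay outside the lines. Among genes not used by the choice, the mitochondrial trio *Higd1b*, *Ndufa4l2* and *Cox4i2* stayed below the 2-fold call, although each was lower in the 4OH-tamoxifen library. The levels were 2747 against 2004 CPM for *Higd1b*, 1388 against 847 for *Ndufa4l2* and 877 against 487 for *Cox4i2*. The thinning of cells to a common depth left 33 of the 98 4OH-tamoxifen pericytes, so differences between the libraries rest on few cells at matched depth.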

How the data were processed

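Single cells of the ventral parafacial region were sequenced by the droplet method of 10X Genomics. The authors deposited, for each library, a table of raw UMI counts per gene and cell barcode on mm10 (GRCm38). The submitters' processing notes name bcl2fastq 2.18.0.12 and Cell Ranger 2.2.0. The untreated and 4OH-tamoxifen libraries held 3767 and 10241 barcodes and 18496942 and 34704167 UMIs.

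A barcode was kept at 800 genes or above, with hemoglobin UMIs up to 50 and a mitochondrial share up to 20%. Pericytes were chosen by the UMI limits given in the report, and endothelial cells, fibroblasts and microglia by like limits on their own markers. Doublets were marked with Scrublet through scanpy 1.11.5 and kept. UMIs of a gene were summed over the cells of a library and divided by the cells' total (CPM). Intervals (95%) were exact Poisson for CPM, Clopper-Pearson for shares and exact conditional for ratios, and cover counting error only (scipy 1.17.1, numpy 2.4.6, pandas 2.3.3, Python 3.11.15). A gene was called against other cells when its fold, with 10 CPM added to both sides, reached 4 in both libraries and its level 50 CPM in both on the higher side, and between libraries at 2-fold with 100 CPM in the higher. No p-value was computed, since each condition had 1 library. The ratio and dispersion steps were tested on simulated data.

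Named genes were the 20 with the largest lower fold over all other filtered cells, the 10 over endothelial cells and over fibroblasts, the 15 with the largest fold in each direction between libraries, the 15 with the largest dispersion, and the called members of 34 gene lists (716 of 723 listed symbols were in the files). A rank over smooth muscle cells could not be made. The members and lists were chosen with earlier results of these data known. The median of a list was taken over its members outside the 17 genes of the rule. Upstream sequences came from RefSeq (GRCm38.p6) and gene positions from GENCODE on GRCm38. There were 13 alternatives, and another, without the mixed pericytes, was chosen after seeing the data. Some genes are not reported here.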

Additional observations from a re-analysis of the deposited data

How the results depend on the processing

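Pericytes made up 2.75% and 1.08% of filtered cells in the untreated and 4OH-tamoxifen libraries. With every limit on other markers at 0 the shares were 1.43% and 0.575%, and at 1200 genes or above they were 2.15% and 0.421%. The 189 genes at least 4-fold higher than in all other filtered cells became 49 when 50 CPM were added to both sides. The 53 genes at least 2-fold higher in untreated pericytes became 168 with the limits at 0, 236 with 1200 genes, 105 with at most 10% mitochondrial UMIs, 238 after thinning to 2000 UMIs, 82 without mitochondrial and ribosomal genes in the total, 16 with 50 CPM added, 21 with the floor doubled and 82 without the mixed pericytes. The 86 genes higher in 4OH-tamoxifen pericytes became 205, 368 and 276 with the limits at 0, 1200 genes and thinning, and 26 and 19 with 50 CPM added and the floor doubled. Fewer pericytes entered with the limits at 0, 1200 genes, less mitochondrial RNA, thinning and the mixed pericytes left out, and the cause of these changes was not tested. The log2 fold of *Syp*, untreated over 4OH-tamoxifen, was 0.47 without the mixed pericytes, a direction set by the choice, since *Syp* is among the genes that define them. Of 280 values for the 20 genes named first, 47 moved beyond their interval and 0 changed direction, and of 420 values for the 30 genes named between libraries, 15 moved and 1, that of *Syp*, changed direction. No paired analysis was possible because each condition had 1 library. The pericytes held 240627 and 197089 UMIs in all, so a level near 50 CPM rests on few UMIs.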
